A study of Homo sapiens with 6 samples.

Results

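FOXA1, HOXB13, GATA2, GRHL2 and SPDEF are transcription factors of the luminal epithelial lineage of the prostate. They were taken by gene symbol from the deposited tables, together with every transcript named after them, which gave 5 of 11844 listed genes and 11 of 29964 listed transcripts. RNA was sequenced from C4-2B, a prostate cancer cell line of human origin that descends from LNCaP. Its stable sublines held the pcDNA 3.1 vector with LINC00888, a long noncoding RNA (3 libraries), or that vector without an insert (3 libraries, called empty vector). All 6 libraries come from this line, the vector expresses constitutively, and the cells grew in RPMI1640 with 10% serum. By the labels, quantitative PCR of the sequenced RNA gave LINC00888 at 15.27 ± 2.4 times the control (SD, number of measurements not given). Whether libraries within a group are separate cultures or clones is not labelled, so the p-values reflect the spread among these 6 libraries, which may be technical. Any other difference between the sublines cannot be told apart from LINC00888. In bulk RNA, fewer cells of a type and less RNA per cell cannot be told apart either.

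As background, luminal prostate cells are kept in their state by a set of factors that act with the androgen receptor, a nuclear receptor switched on by androgens. FOXA1, a forkhead protein, is a pioneer factor that opens chromatin for the receptor. HOXB13 is a homeobox factor that marks the prostate throughout life, and GATA2 is a zinc finger factor that assists the receptor on enhancers. GRHL2, a grainyhead protein, maintains epithelial junction genes. SPDEF is an ETS factor with a role in secretory differentiation.

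Values are FPKM, fragments scaled to model length and to mapped fragments, as deposited. Per library, the FPKM of listed genes added up to 211148 at the least and 217637 at the most. Sequencing depth is unknown. Mitochondrially encoded genes took 18.4% to 19.7% of that sum in the LINC00888 libraries and 17.6% to 18.4% in the empty vector libraries. The markers of luminal cells were all listed, at a summed 619 to 627 FPKM in LINC00888 libraries and 561 to 580 FPKM in empty vector libraries. KLK3 made up most of that sum. KLK3, TMPRSS2 and HPN were called as higher with LINC00888, and the keratins KRT8 and KRT18 as lower. The KLK3 call was lost without any 1 library (limma adjusted p up to 0.129). KRT8 had 24.4 FPKM with LINC00888 and 30.3 FPKM with empty vector (limma adjusted p = 0.00835). KRT18 had 46.0 FPKM with LINC00888 and 56.4 FPKM with empty vector (0.0143, and 0.0513 without LINC00888 library 1). In total, 9 of 28 markers of other cell types could be tested, and 3 were called (ITGB4, CDH3 and PDGFRB), where 13.5% of all genes were called. All 3 calls depended on single libraries. Basal markers summed to 5.58 to 5.92 FPKM with LINC00888 and 4.70 to 5.03 FPKM with empty vector, over KRT14, ITGB4 and CDH3, and KRT5, KRT15 and TP63 were not listed. Fibroblast markers (2 of 6 tested) summed to 3.12 to 3.87 FPKM with LINC00888 and 3.21 to 3.53 FPKM with empty vector. Of these, COL1A1 carried most of the sum, and PDGFRB had 0.650 FPKM with LINC00888 and 0.308 FPKM with empty vector, having passed the filter on low values only through the LINC00888 libraries. The neuroendocrine markers (2 of 8) summed to 8.53 to 10.7 FPKM with LINC00888 and 8.20 to 10.6 FPKM with empty vector. The leukocyte marker CD68 lay at 0.709 to 0.732 FPKM with LINC00888 and 0.574 to 0.966 FPKM with empty vector. The endothelial marker VWF lay at 0.499 to 0.537 FPKM with LINC00888 and 0.523 to 0.559 FPKM with empty vector. The part of these values in the results was not tested.

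All the lineage factors were abundant. GRHL2 was higher with LINC00888, GATA2 was higher in each library without passing the threshold, and FOXA1, HOXB13 and SPDEF differed little. With limma on log2(FPKM + 0.5) and an adjusted p under 0.05, 1 of 5 factors was called. Among all genes tested, 13.5% were called in either direction, 941 as higher and 640 as lower (748 and 847 after median ratio scaling), and 8.02% were called as higher. The 1 factor called is 20% of the 5, too small a count to set against these shares. The sizes and their intervals carry more than the count. For 2 of 5 factors the groups did not overlap, against 38.3% of all genes in either direction and 23.5% as higher with LINC00888.

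**Figure D1:**
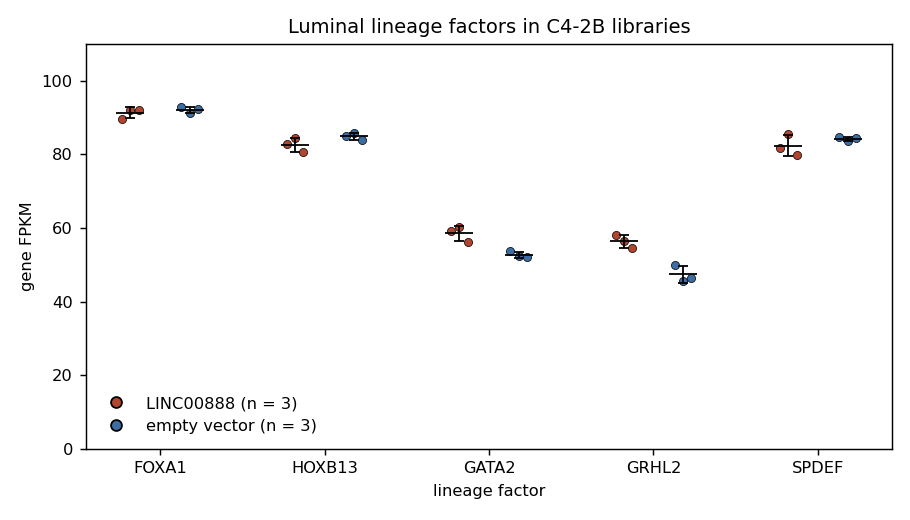
Gene FPKM of the lineage factors in each library (points), with the mean (long bar) and SD (whiskers), LINC00888 left of empty vector, n = 3 each. GRHL2 and GATA2 lie higher in all LINC00888 libraries than in any empty vector library, while the groups of FOXA1, HOXB13 and SPDEF overlap.

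GRHL2 (ENSG00000083307.10_3, chr8:102504660-102681954, plus strand) had 58.2, 56.5 and 54.5 FPKM in LINC00888 libraries, against 50.1, 45.6 and 46.4 FPKM in empty vector libraries. The lowest LINC00888 library lay above the highest empty vector library. Its mean was 56.4 ± 1.85 FPKM with LINC00888 and 47.4 ± 2.36 FPKM with empty vector (SD, n = 3 each), 19.0% higher. The log2 fold change was 0.25 (SE 0.048, 95% interval 0.13 to 0.36), an interval of 1.10 to 1.29 in fold, with a limma adjusted p of 0.0240. The call depended on single libraries. It was lost without LINC00888 library 1 (adjusted p = 0.0798), LINC00888 library 2 (0.0733), empty vector library 2 (0.0651) or empty vector library 3 (0.0791) in the same limma fit, with the direction kept.

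GATA2 (ENSG00000179348.11_3, chr3:128198270-128212028, minus strand) had 59.3, 60.1 and 56.1 FPKM in LINC00888 libraries, against 53.7, 52.3 and 52.2 FPKM in empty vector libraries. Here too the groups did not overlap. The mean was 58.5 ± 2.11 FPKM with LINC00888 and 52.7 ± 0.808 FPKM with empty vector (SD, n = 3 each), 10.9% higher. Its log2 fold change was 0.15 (SE 0.038, 95% interval 0.06 to 0.24), and the limma adjusted p of 0.0515 missed the threshold. GATA2 was called by limma after rescaling to equal sums over nuclear genes (adjusted p = 0.0379), after quantile normalization (0.0243) and after cyclic loess normalization (0.0339), and in no other alternative.

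FOXA1 (ENSG00000129514.5_2, chr14:38059189-38065264, minus strand), the most abundant of the factors, had 89.5, 92.2 and 92.1 FPKM in LINC00888 libraries, against 92.8, 91.2 and 92.4 FPKM in empty vector libraries. The groups overlapped almost entirely. The log2 fold change was -0.01 (SE 0.029), the 95% interval in fold ran from 0.943 to 1.04, and the limma adjusted p was 0.785. Of all genes tested, 93.7% had a larger absolute log2 fold change than FOXA1. Its SE was among the smallest measured, with 0.205% of genes below it.

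HOXB13 (ENSG00000159184.7_2, chr17:46802125-46806540, minus strand) had 82.8, 84.4 and 80.5 FPKM in LINC00888 libraries, against 85.0, 85.8 and 83.9 FPKM in empty vector libraries. The upper LINC00888 library reached into the range of the empty vector libraries. The interval in fold was 0.922 to 1.03 around a log2 fold change of -0.04 (SE 0.032, limma adjusted p = 0.449).

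SPDEF (ENSG00000124664.10_2, chr6:34505579-34524110, minus strand) had 81.7, 85.5 and 79.9 FPKM in LINC00888 libraries, against 84.7, 83.5 and 84.5 FPKM in empty vector libraries. LINC00888 libraries lay both above and below the empty vector libraries, which differed little among themselves. The interval in fold was 0.921 to 1.04 around a log2 fold change of -0.03 (SE 0.036, limma adjusted p = 0.580).

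The small negative estimates of FOXA1, HOXB13 and SPDEF depended on scaling. After quantile normalization the log2 fold changes were 0.06 for FOXA1, 0.05 for HOXB13 and 0.05 for SPDEF, and after cyclic loess 0.05, 0.02 and 0.03 in the same order. FOXA1 was also positive after rescaling to equal sums over nuclear genes (0.01). None of these was called. So neither direction can be given for FOXA1, HOXB13 or SPDEF. GRHL2 and GATA2 kept a positive sign in all 16 alternatives.

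**Figure D2:**
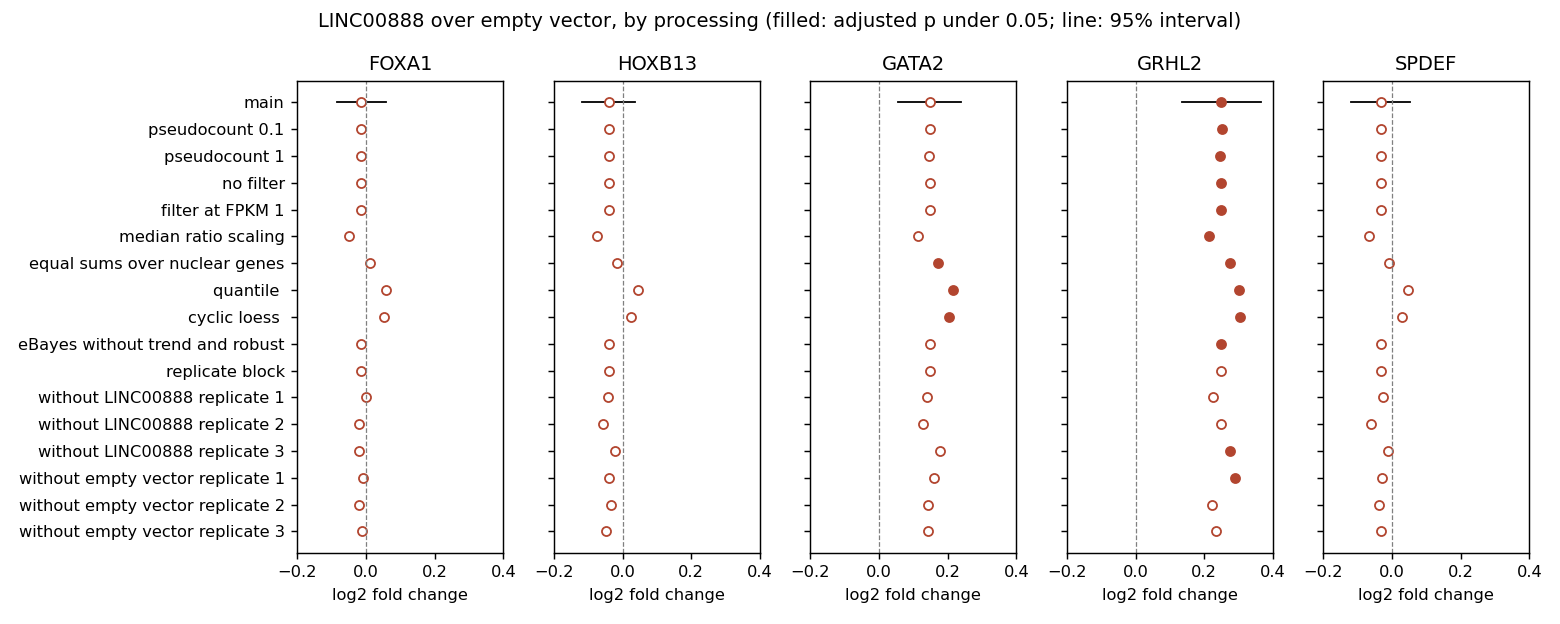
Log2 fold change, LINC00888 over empty vector, of each lineage factor under the reported processing (top row, with its 95% interval) and 16 alternatives; filled points have a limma adjusted p under 0.05. GRHL2 and GATA2 stay right of 0 throughout, and FOXA1, HOXB13 and SPDEF move to both sides of 0.

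Ratios between factors within a library do not depend on how libraries are scaled to each other. The log2 ratio of GRHL2 to SPDEF was -0.49, -0.59 and -0.55 in LINC00888 libraries, against -0.75, -0.87 and -0.86 in empty vector libraries. GATA2 to SPDEF was -0.46, -0.50 and -0.50 with LINC00888, against -0.65, -0.67 and -0.69 with empty vector. In both ratios every LINC00888 library was higher. The mean difference, LINC00888 minus empty vector, was 0.28 for GRHL2 to SPDEF and 0.18 for GATA2 to SPDEF. With GRHL2 below the line, it was -0.26 for FOXA1 and -0.29 for HOXB13, and with GATA2 below the line -0.16 for FOXA1 and -0.19 for HOXB13. The ratio of GATA2 to GRHL2 also moved, by -0.10, so in these libraries the GRHL2 difference was larger than the GATA2 difference. In all, 7 of 10 pairs did not overlap between groups. Each had an exact permutation p of 0.1, the smallest that 3 against 3 libraries can give, and 0.143 adjusted over the 10 pairs. These are the pairs that hold GRHL2 or GATA2, whose own values already did not overlap, so the count restates those genes. The share over all gene pairs was not computed, and 38.3% of single genes did not overlap. The other 3 pairs, all among FOXA1, HOXB13 and SPDEF, overlapped, with mean differences of 0.03 (FOXA1 to HOXB13), 0.02 (FOXA1 to SPDEF) and -0.01 (HOXB13 to SPDEF). No pair passed a threshold of 0.05, which this design cannot reach, so the ratios are a description.

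In level, which FPKM allows to be compared between genes per length, the order of the means in either group was FOXA1, HOXB13, SPDEF, GATA2 and GRHL2. HOXB13 and SPDEF overlapped in either group. GATA2 and GRHL2 overlapped in LINC00888 libraries (lowest GATA2 56.1 FPKM, highest GRHL2 58.2 FPKM), and GATA2 lay wholly above GRHL2 in empty vector libraries (lowest GATA2 52.2 FPKM, highest GRHL2 50.1 FPKM). Mean levels stood between the 94.7 percentile of listed genes for GRHL2 and the 97.6 percentile for FOXA1.

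The pattern over the 6 libraries was compared through log2(FPKM + 0.5) centred on each gene's mean. HOXB13 and SPDEF were the closest pair of factors, with a root mean square difference of 0.0184, and HOXB13 and GRHL2 the farthest apart at 0.152. GATA2 was nearest to GRHL2 (0.0612). Among the other 6652 genes with a mean of at least 5 FPKM, those nearest to GRHL2 were FNBP4, CMTR1 and CABIN1 (0.0222 to 0.0228). CMTR1 and CABIN1 were called as higher with LINC00888 (limma adjusted p = 0.0231 and 0.0296, lost without any of 5 or 6 libraries in turn), and FNBP4 was not (0.0576). Nearest to GATA2 were CLK2, ZER1 and TKFC (0.00842 to 0.0147), with limma adjusted p between 0.0884 and 0.109. AIFM1 and VPS35 were among the nearest to FOXA1 (0.0147 and 0.0154), BABAM1, SLC35F2 and MSN lay nearest to HOXB13 (0.00541 to 0.0132), and DAP, TSPAN15 and SAPCD2 to SPDEF (0.00970 to 0.0124). None of these 8 genes was called. These likenesses describe 6 libraries and share their scaling. Genes chosen this way share the group difference of their factor by the choice itself, so their calls are not a separate result.

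The promoters printed next are those RefSeq gives on GRCh38.p14 for FOXA1 and for 2 starts of GATA2, a gene with several starts, with 250 bases before and 50 bases from the start site on the transcribed strand. FOXA1 is at chr14:37595200-37595499 (minus strand), the GATA2 distal start at chr3:128493152-128493451 (minus strand) and the GATA2 proximal start at chr3:128488481-128488780 (minus strand). FOXA1-201, the listed FOXA1 transcript, starts at position 37595034 in the GENCODE model, downstream of the printed window. Capitals mark a forkhead motif.
FOXA1 promoter: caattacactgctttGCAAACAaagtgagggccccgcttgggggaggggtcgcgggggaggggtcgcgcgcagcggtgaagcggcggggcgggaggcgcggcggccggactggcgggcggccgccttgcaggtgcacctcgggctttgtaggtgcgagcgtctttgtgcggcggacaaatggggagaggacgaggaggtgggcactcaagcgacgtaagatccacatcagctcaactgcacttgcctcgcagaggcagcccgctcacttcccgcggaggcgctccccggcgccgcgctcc
GATA2 distal promoter: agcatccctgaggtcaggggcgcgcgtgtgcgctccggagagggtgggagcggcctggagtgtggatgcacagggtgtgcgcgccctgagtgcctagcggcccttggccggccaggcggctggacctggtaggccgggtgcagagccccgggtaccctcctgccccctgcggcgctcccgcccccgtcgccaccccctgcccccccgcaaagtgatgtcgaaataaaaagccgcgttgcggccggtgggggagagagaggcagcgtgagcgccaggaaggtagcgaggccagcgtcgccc
GATA2 proximal promoter: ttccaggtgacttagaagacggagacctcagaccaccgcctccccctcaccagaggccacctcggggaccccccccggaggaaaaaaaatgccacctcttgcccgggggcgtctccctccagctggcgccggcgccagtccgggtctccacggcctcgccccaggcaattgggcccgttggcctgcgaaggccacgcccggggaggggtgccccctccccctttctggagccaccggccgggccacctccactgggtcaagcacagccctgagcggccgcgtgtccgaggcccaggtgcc
The GC content was 69.3% for FOXA1, 72.3% at the distal and 71.3% at the proximal GATA2 start, against a median of 58.7% over all 35116 promoters. SPDEF, also matched in this table (chr6:34556280-34556579, minus strand), had 52.0%. The forkhead letters searched on both strands were TGTTTAC with its variant TGTTTGC, and likewise TATTTAC with its variant TATTTGC, found in 12.1% of all promoters. FOXA1 holds 1 match, GCAAACA at position -235, and SPDEF holds 1, GTAAATA at position -49 from the start site. None of these 4 windows holds AGATAA with its variant AGATAG, or likewise TGATAA with its variant TGATAG (the GATA motif, 25.0% of all promoters), CAATAAA (HOXB13, 4.004%), AACCGGTT (grainyhead, 0.134%), CCGGAA (ETS, 17.2%) or TATAAA (the TATA box, 11.5%) on either strand. A match in letters is not a measured binding site.

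At the transcript level the main forms followed their genes, with wider error. Of the minor GATA2 forms, GATA2-203 had a negative estimate (limma log2 fold change -0.40), and GATA2-205 and GATA2-206 had positive ones. No transcript of the factors was called by limma over all transcripts (0 of 11, with 3 at an unadjusted p under 0.05, and 0 of 11 without trend and robust), where 0.379% of all transcripts tested were called, 0.167% as higher and 0.212% as lower. The groups did not overlap for 4 of 11 transcripts, GATA2-201, GATA2-206, GRHL2-201 and GRHL2-202, against 19.9% of all transcripts. All 4 were higher with LINC00888, where 10.7% of all transcripts stood apart in that direction. These transcripts belong to GATA2 and GRHL2, whose gene values already did not overlap, so the count restates those genes. GRHL2-201, the main GRHL2 form, had 65.1, 63.6 and 61.3 FPKM in LINC00888 libraries, against 56.3, 51.7 and 52.2 FPKM in empty vector libraries, a log2 fold change of 0.25 (SE 0.051, limma adjusted p = 0.199). GRHL2-202, a shorter model, had 4.78, 3.92 and 3.89 FPKM with LINC00888, against 3.44, 2.20 and 3.45 FPKM with empty vector (limma adjusted p = 0.520). Both GRHL2 forms thus lay higher. The share of GRHL2-201 was 93.8% ± 0.557 with LINC00888 and 94.7% ± 1.11 with empty vector (SD, n = 3 each), and the groups overlapped (exact permutation p = 0.4).

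GATA2-201 and GATA2-206 begin at the distal start printed above and GATA2-203 at the proximal one (128488530). GATA2-202 begins downstream of the proximal window, at 128487916, and is grouped with GATA2-203 here. GATA2-201 had 56.2, 56.4 and 53.9 FPKM in LINC00888 libraries, against 50.7, 51.7 and 45.4 FPKM in empty vector libraries (limma adjusted p = 0.419). GATA2-202 had 24.7, 26.4 and 23.4 FPKM with LINC00888, against 17.9, 20.1 and 27.1 FPKM with empty vector (limma adjusted p = 0.698). The distal form lay higher in every LINC00888 library, and the proximal form was highest in an empty vector library. Summed by start, distal transcripts had 60.5, 60.9 and 57.0 FPKM with LINC00888, against 53.2, 53.1 and 48.2 FPKM with empty vector (exact permutation p = 0.1, no overlap). Proximal transcripts had 27.1, 28.98 and 25.3 FPKM with LINC00888, against 22.3, 22.1 and 30.6 FPKM with empty vector (exact permutation p = 0.6, overlap). A difference between the starts was not shown, since the shares of both main forms overlapped. GATA2-201 made up 63.2% ± 1.18 of GATA2 transcript FPKM with LINC00888 and 63.8% ± 5.95 with empty vector, and GATA2-202 28.3% ± 0.711 with LINC00888 and 27.9% ± 5.47 with empty vector (SD, n = 3 each). Empty vector library 3 set this wider spread, with 57.0% GATA2-201 and 34.0% GATA2-202.

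The minor GATA2 forms were low. GATA2-206, a short distal model, had 4.25, 4.53 and 3.13 FPKM with LINC00888, against 2.48, 1.38 and 2.78 FPKM with empty vector (limma adjusted p = 0.420). It was the one share of 9 that did not overlap, 4.503% ± 0.669 with LINC00888 and 2.85% ± 0.903 with empty vector (SD, n = 3 each, exact permutation p = 0.1, adjusted 0.6). Leaving out 1 library in turn, the number of shares without overlap ran from 1 to 5, the upper value after leaving out empty vector library 3. Leaving out a library cannot make separated groups overlap, so this number could only stay or rise. GATA2-203 had 2.36, 2.60 and 1.91 FPKM with LINC00888, against 4.42, 1.92 and 3.59 FPKM with empty vector. GATA2-205 had 1.58, 0.804 and 1.21 FPKM with LINC00888, against 1.21, 0.641 and 0.779 FPKM with empty vector. Both of these overlapped.

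The 2 abundant GATA2 forms differ in coding sequence as well as in start. GATA2-202 lacks 42 coding bases that GATA2-201 has, at chr3:128481903-128481944 on GRCh38 (minus strand), which are 14 codons (340 to 353) with 3 cysteine codons and keep the frame. The coding sequence is 1440 bases in GATA2-201 and 1398 in GATA2-202. SPDEF-202 lacks 48 coding bases of SPDEF-201, the length of 16 codons, at chr6:34539515-34539562 on GRCh38 (minus strand), with 1005 bases of coding sequence in SPDEF-201 and 957 in SPDEF-202. The stretches are shown because they are where the coding sequences of each pair differ. Absent bases are in capitals, with 15 bases of coding sequence on each side. The models also differ in start site, 128493185 in GATA2-201 and 128487916 in GATA2-202. SPDEF-201 starts at 34556314 and SPDEF-202 at 34556333. The FPKM of a form thus does not measure the use of its stretch alone.
GATA2-201: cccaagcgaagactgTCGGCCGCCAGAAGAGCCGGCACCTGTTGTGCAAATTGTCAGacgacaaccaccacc
SPDEF-201: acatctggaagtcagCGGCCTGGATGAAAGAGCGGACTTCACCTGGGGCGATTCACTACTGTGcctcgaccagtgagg
The form with the SPDEF stretch dominated, at 81.0, 85.2 and 79.5 FPKM in LINC00888 libraries and 84.0, 82.8 and 83.5 FPKM in empty vector libraries. SPDEF-202 had 1.56, 1.15 and 1.22 FPKM with LINC00888 and 1.52, 1.57 and 1.92 FPKM with empty vector. The share of SPDEF-201 was 98.4% ± 0.288 with LINC00888 and 98.0% ± 0.250 with empty vector (SD, n = 3 each, exact permutation p = 0.3). For GATA2 the form without the stretch was a large minority and for SPDEF a small one, in both groups.

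**Figure D3:**
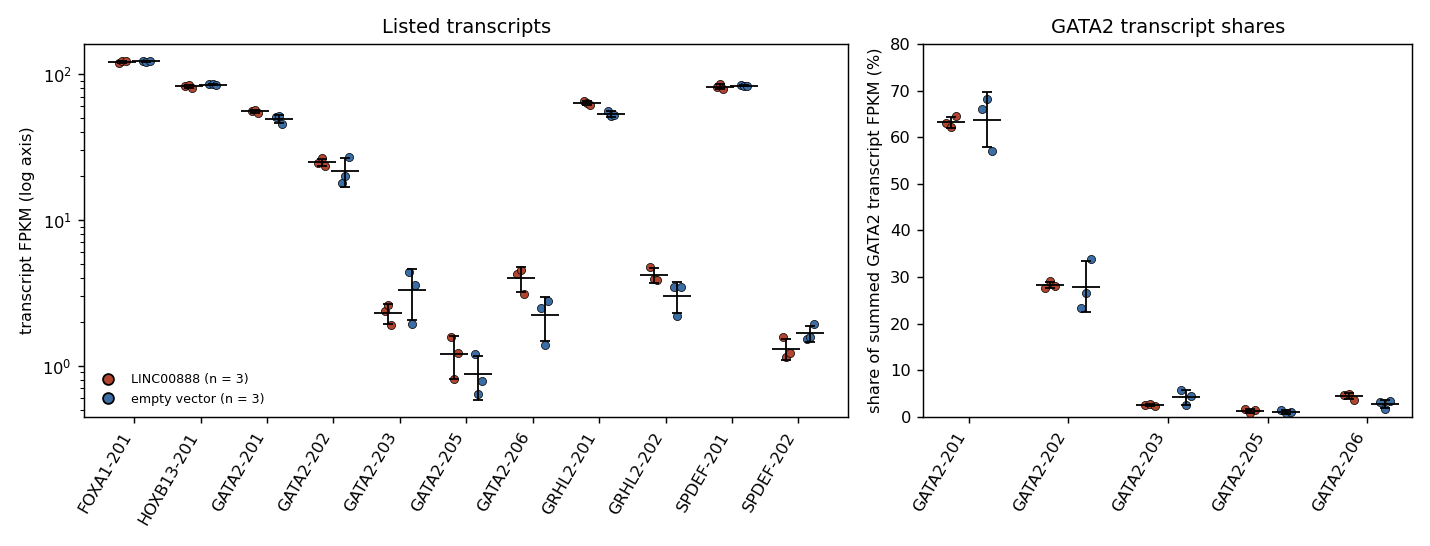
Left, FPKM of the 11 listed transcripts in each library (log axis); right, the share (%) of each GATA2 transcript in the summed GATA2 transcript FPKM; points are libraries, long bars means and whiskers SD, LINC00888 left of empty vector, n = 3 each. Both GRHL2 transcripts, GATA2-201 and GATA2-206 lie higher in all LINC00888 libraries, and the GATA2-201 and GATA2-202 shares spread most in the empty vector libraries.

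FOXA1-201 and HOXB13-201 were the only transcripts listed for their genes. FOXA1-201 had 121 ± 1.80 FPKM with LINC00888 and 122 ± 0.477 FPKM with empty vector (SD, n = 3 each), and HOXB13-201 had the values of its gene. The gene values could be rebuilt from transcript FPKM weighted by model length over the union of GENCODE exons, to 100% for HOXB13 and SPDEF, 99.6% to 99.8% for GRHL2 and 94.7% to 96.1% for FOXA1. For GATA2 the listed transcripts gave 98.3% to 98.8% in 5 libraries and 94.7% in empty vector library 1. Rebuilt from listed transcripts alone, GATA2 was 58.3, 59.3 and 55.4 FPKM with LINC00888, against 50.8, 51.6 and 51.6 FPKM with empty vector, 12.3% higher (exact permutation p = 0.1). The GATA2 difference was thus a little larger without the unlisted remainder.

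Several relatives of the factors were far lower in level. GATA2 stood at 34.8 to 44.7 times GATA6, GRHL2 at 20.8 to 25.0 times GRHL1, and HOXB13 at 12.04 to 15.6 times HOXB7 across the 6 libraries, all as ratios of FPKM. SPDEF in contrast stood at 0.644 to 0.838 times EHF, another epithelial ETS factor, which had 121 FPKM with LINC00888 and 116 FPKM with empty vector. PRAC1, a gene beside HOXB13 that is counted in this list but is no HOX gene, had 77.6 FPKM with LINC00888 and 69.4 FPKM with empty vector. No FOXA relative and no GRHL3 was among the listed genes. Of 30 relatives tested (of 51 looked for), 5 were called as higher and 2 as lower, where 8.02% of all genes were called as higher and 5.46% as lower. The median log2 fold change was 0.07 beside 0.03 for all genes.

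The higher relatives were ETS, GATA and HOX genes. FEV, a neuronal ETS factor, had 8.90 ± 0.662 FPKM with LINC00888 and 5.996 ± 0.195 FPKM with empty vector (SD, n = 3 each; limma log2 fold change 0.53, adjusted p = 0.00739). GATA5, a cardiac and gut GATA factor, had 1.00 ± 0.163 FPKM with LINC00888 and 0.404 ± 0.0502 FPKM with empty vector (0.73, 0.0105). ELF5 had 7.09 ± 0.333 FPKM with LINC00888 and 5.43 ± 0.153 FPKM with empty vector (0.36, 0.0131), and ELF3 3.47 ± 0.284 FPKM with LINC00888 and 2.41 ± 0.0765 FPKM with empty vector (0.44, 0.0147). Both are epithelial ETS factors. HOXB9, of the same cluster as HOXB13 and named here after its value was seen, had 4.30 FPKM with LINC00888 and 3.08 FPKM with empty vector (limma adjusted p = 0.0302). The lower relatives were SPIC, with 0.300 ± 0.0831 FPKM with LINC00888 and 0.665 ± 0.155 FPKM with empty vector (-0.54, 0.0423), and ERF, an ETS repressor, with 4.86 ± 0.330 FPKM with LINC00888 and 5.86 ± 0.152 FPKM with empty vector (-0.25, 0.0479). GATA5 passed the filter on low values only through the LINC00888 libraries, and SPIC only through the empty vector libraries. These 2 had to differ to be tested, so their values are a description, and without a library of that group they were not tested. The other calls were 4 higher and 1 lower. Leaving out 1 library in turn, 3 to 5 relatives were called, and 3 without LINC00888 library 1, LINC00888 library 3 or empty vector library 3. ELF3 was lost without LINC00888 library 1 or empty vector library 3 (limma adjusted p up to 0.0546), SPIC without any 1 LINC00888 library (up to 0.115), HOXB9 without any 1 library but empty vector 2 (up to 0.0922) and after quantile and cyclic loess normalization (up to 0.0591), and ERF without any 1 library (up to 0.133) and after rescaling to equal sums over nuclear genes (0.0744).

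Of 41 partners and cofactors of the factors and of the androgen receptor tested, 3 were called, all as lower. That is 7.32%, where 13.5% of all genes were called in either direction, a small count from which no rarity can be read. The median log2 fold change was 0.00. NCOA1, a steroid receptor coactivator, had 3.41 ± 0.325 FPKM with LINC00888 and 5.71 ± 0.315 FPKM with empty vector (SD, n = 3 each; limma log2 fold change -0.67, adjusted p = 0.00735). TLE1, a Groucho corepressor, had 4.42 ± 0.297 FPKM with LINC00888 and 6.22 ± 0.226 FPKM with empty vector (-0.45, 0.0107). FKBP4, a steroid receptor co-chaperone, had 77.3 ± 1.06 FPKM with LINC00888 and 87.5 ± 1.14 FPKM with empty vector (-0.18, 0.0165). Over all genes 5.46% were called as lower. FKBP4 was lost without LINC00888 library 2, LINC00888 library 3 or empty vector library 3 (limma adjusted p up to 0.0626), and after quantile and cyclic loess normalization (up to 0.0985). With a block on replicate number, TLE1 (limma adjusted p = 0.0568) and FKBP4 (0.0616) were both lost.

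Epithelial junction, polarity and splicing genes, many of them known GRHL2 targets, were called about as often as all genes. Of 35 tested, 2 were called as higher and 2 as lower, or 11.4%, against 13.5% of all genes, and the median log2 fold change was -0.02. AP1M2, a subunit of the epithelial basolateral sorting adaptor, had 56.9, 57.2 and 53.5 FPKM in LINC00888 libraries, against 46.1, 43.9 and 47.9 FPKM in empty vector libraries (limma log2 fold change 0.28, adjusted p = 0.0167). PRSS8, the serine protease prostasin, had 15.9 ± 0.962 FPKM with LINC00888 and 12.9 ± 0.700 FPKM with empty vector (SD, n = 3 each; 0.29, 0.0318). These 2 were of about the size of the GRHL2 difference, but they are named because they were called. A link to GRHL2 was not tested. KLF5, an epithelial Krüppel-like factor, had 1.82, 2.04 and 1.82 FPKM with LINC00888, against 3.61, 3.53 and 3.29 FPKM with empty vector (limma log2 fold change -0.74, adjusted p = 0.00392). JUP, the junction protein plakoglobin, had 47.0 ± 1.91 FPKM with LINC00888 and 54.7 ± 1.22 FPKM with empty vector (SD, n = 3 each; -0.22, 0.0232). Leaving out 1 library in turn, 2 to 3 of the list were called, and 2 without LINC00888 library 1 or 3 or empty vector library 1 or 3. AP1M2 was lost without LINC00888 library 1 or 2 (limma adjusted p up to 0.0624), PRSS8 without any 1 library but empty vector 2 (up to 0.0936) and after median ratio scaling (0.0516), and JUP without any 1 library but LINC00888 2 (up to 0.0738) and after quantile and cyclic loess normalization (up to 0.0718).

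CDH1 (E-cadherin) and CLDN4, both known GRHL2 targets, varied widely between libraries and are named after their values were seen. CDH1 had 26.9, 44.6 and 42.3 FPKM in LINC00888 libraries, against 57.6, 54.5 and 54.8 FPKM in empty vector libraries (limma adjusted p = 0.111, and 0.0276 without LINC00888 library 1). CDH1-201 had 10.2, 2.08 and 4.82 FPKM with LINC00888, against 21.2, 23.6 and 24.5 FPKM with empty vector. Other CDH1 transcripts lay the other way. CDH1-213 had 4.15, 0.592 and 0.942 FPKM with LINC00888, against 0.388, 0.373 and 0.277 FPKM with empty vector. CDH1-202 (8.94 and 5.29 FPKM in LINC00888 libraries 2 and 3) and CDH1-214 (4.4978 and 3.47 FPKM in LINC00888 libraries 1 and 2) were listed at 0 in the remaining libraries. CLDN4 had 44.1, 2.69 and 41.6 FPKM with LINC00888, against 0.396, 1.38 and 0.224 FPKM with empty vector (limma adjusted p = 0.0680). The CLDN4 value sat on a different transcript in the high libraries, CLDN4-203 at 49.5 FPKM in LINC00888 library 1 and CLDN4-201 at 105 FPKM in LINC00888 library 3. How reads were divided between these transcripts was not tested, and neither gene was called.

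Luminal genes, among them secretory genes and keratins, changed in both directions. Of 29 tested, 3 were called as higher and 8 as lower, where 8.02% of all genes were called as higher and 5.46% as lower. KLK3, TMPRSS2, HPN, KRT8 and KRT18, given above as markers, are in this list, so their calls are counted again here. The median log2 fold change was 0.03, equal to that of all genes. TMPRSS2, an androgen-regulated membrane protease, had 112 ± 1.31 FPKM with LINC00888 and 82.3 ± 1.57 FPKM with empty vector (SD, n = 3 each; limma log2 fold change 0.44, adjusted p = 0.00162). HPN, the protease hepsin, had 32.1 ± 0.438 FPKM with LINC00888 and 26.6 ± 0.863 FPKM with empty vector (0.27, 0.0109). KLK3, which encodes prostate-specific antigen, had 409 ± 1.98 FPKM with LINC00888 and 372 ± 9.30 FPKM with empty vector (0.14, 0.0383). Among the lower genes, AGR2, a disulfide isomerase of secretory cells, had 5.47 ± 0.316 FPKM with LINC00888 and 10.5 ± 0.452 FPKM with empty vector (-0.88, 0.00162). DPP4, a surface peptidase, had 45.3 ± 0.986 FPKM with LINC00888 and 56.7 ± 0.348 FPKM with empty vector (-0.32, 0.00444). SLC45A3, or prostein, had 67.5 ± 1.74 FPKM with LINC00888 and 82.9 ± 0.909 FPKM with empty vector (-0.29, 0.00649), and KLK2 74.7 ± 3.14 FPKM with LINC00888 and 92.7 ± 0.942 FPKM with empty vector (-0.31, 0.00835). KLK2 and KLK3, neighbouring kallikreins, thus went opposite ways. Leaving out 1 library in turn, 7 to 8 of the list were called, and 7 without LINC00888 library 1. KLK3 was lost without any 1 library (highest limma adjusted p 0.129), and median ratio scaling and eBayes with neither trend nor robust each ended its call as well. FOLH1 and AZGP1, called as lower and named here for the loss of their calls, were also lost without any 1 library (limma adjusted p up to 0.0886 and 0.127).

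Of 17 transcription factors grouped here as mesenchymal or basal, 8 were listed and tested. SOX4 was the most abundant, at 49.0 FPKM with LINC00888 and 48.5 FPKM with empty vector, and was not called. Of the 8 tested, 3 were called as higher, where 8.02% of all genes were, none as lower, and the median log2 fold change was 0.11. SOX9, a progenitor factor, had 4.64 ± 0.242 FPKM with LINC00888 and 3.605 ± 0.164 FPKM with empty vector (SD, n = 3 each; limma log2 fold change 0.33, adjusted p = 0.0238), and KLF4 4.15 ± 0.296 FPKM with LINC00888 and 3.10 ± 0.197 FPKM with empty vector (0.37, 0.0263). ZEB1, ZEB2 and TP63 were not listed. Leaving out 1 library in turn, 1 to 3 of these factors were called, and all 3 were called only without empty vector library 2. SOX9 and KLF4 were lost without any of the other libraries (limma adjusted p up to 0.0778 and 0.0819), KLF4 also after quantile and cyclic loess normalization. The basal markers ITGB4 and CDH3 lay higher beside them, at 1.78 and 2.00 FPKM with LINC00888, against 1.13 and 1.4996 FPKM with empty vector, and KRT14 at 1.93 FPKM with LINC00888 and 2.23 FPKM with empty vector. ITGB4 and CDH3 were called, but ITGB4 was lost without any 1 library but LINC00888 3 (limma adjusted p up to 0.0719) and CDH3 without any 1 library (up to 0.0940). The fibroblast marker PDGFRB had 0.650 FPKM with LINC00888 and 0.308 FPKM with empty vector, and passed the filter only through the LINC00888 libraries. COL1A1, the other fibroblast marker tested, lay the other way, at 2.87 FPKM with LINC00888 and 3.06 FPKM with empty vector, and was not called. The part of these markers in the result was not tested.

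**Figure D4:**
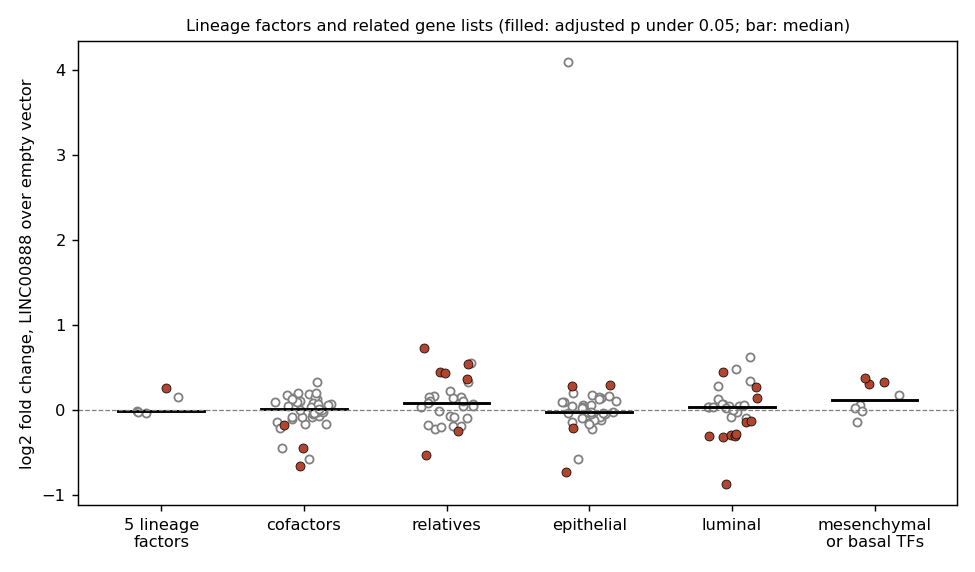
Log2 fold change, LINC00888 over empty vector, of the lineage factors and of each tested gene in the related lists; points are genes, filled where the limma adjusted p is under 0.05, and bars are list medians. List medians lie between -0.02 and 0.11, and called genes fall on both sides of 0 except among cofactors, where all are lower, and among the lineage factors and the mesenchymal or basal factors, where all are higher. The uncalled point near 4 is CLDN4.

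Of the genes next to the factors, TTC6 and PRAC2 were called as higher and RPN1 as lower. TTC6 starts on the opposite strand beside FOXA1, and in both the deposited positions and GRCh38 the gene spans share 213 bases. The listed transcript FOXA1-201 starts outside that overlap. TTC6 had 18.1, 16.4 and 16.3 FPKM in LINC00888 libraries, against 11.6, 10.7 and 11.2 FPKM in empty vector libraries, well apart, while FOXA1 overlapped. Its log2 fold change was 0.58 (SE 0.056, limma adjusted p = 0.00428), and it was called in all 16 alternatives. Its main transcripts lay higher alike, TTC6-206 at 18.1 FPKM with LINC00888 and 11.99 FPKM with empty vector, and TTC6-210 at 14.9 FPKM with LINC00888 and 8.83 FPKM with empty vector. The libraries were strand-specific by the labels, but whether quantification used the strand is not given in the sources used here, so reads in the shared bases cannot be assigned with certainty. RPN1, an oligosaccharyltransferase subunit beside GATA2, had 76.5, 80.7 and 79.3 FPKM with LINC00888, against 95.5, 98.6 and 100.6 FPKM with empty vector (log2 fold change -0.32, SE 0.037, limma adjusted p = 0.00662), opposite in direction to the GATA2 difference.

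PRAC2, whose end lies 4 bases from that of HOXB13 on the other strand, had 16.3, 15.3 and 15.6 FPKM in LINC00888 libraries, against 11.6, 13.7 and 13.4 FPKM in empty vector libraries. The groups did not overlap. The limma adjusted p of 0.0498 was barely under the threshold and was lost without any 1 library (up to 0.142) and in 14 of 16 alternatives. The other nearest neighbours (MIPOL1, TTLL6, EEFSEC, ZNF706, RRM2B, PACSIN1 and C6orf106) were not called.

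**Figure D5:**
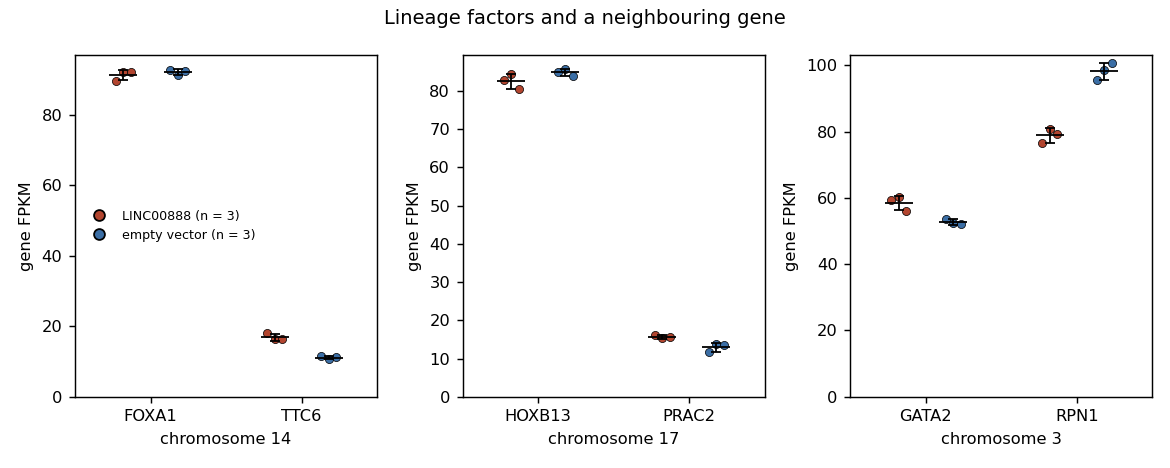
Gene FPKM of FOXA1 and TTC6, HOXB13 and PRAC2, and GATA2 and RPN1 in each library (points), with the mean (long bar) and SD (whiskers), LINC00888 left of empty vector, n = 3 each. TTC6 lies higher with LINC00888 beside an overlapping FOXA1, and RPN1 lies lower while GATA2 lies higher.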

How the data were processed

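Strand-specific libraries of polyA-selected RNA were read as paired ends for 150 cycles, per the labels' protocols. HISAT2, StringTie, cutadapt and FastQC are the tools in the submitters' processing notes, with no version given, and the notes list the mouse build GRCm38 although the features are human. The build of the deposited human positions is not given in the sources used here. The deposited gene and transcript tables hold FPKM computed by the authors, per the file headers. They hold no counts, so depth is unknown and no counting interval was computed. All listed features are protein coding with a group mean of at least 0.5 FPKM, so a gene that is not listed is not shown to be at 0.

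Features with at least 0.5 FPKM in at least 3 of 6 libraries were kept (11726 genes, 26941 transcripts), with all 5 factors and 11 transcripts among them. Values were log2(FPKM + 0.5), not rescaled, compared with limma 3.58.1 in R 4.3.3 (lmFit, eBayes with trend and robust), two-sided, Benjamini-Hochberg over all features, threshold 0.05. Log2 fold changes are those of the fit and understate changes of low genes, and percentages are ratios of mean FPKM. Single ratios and shares had exact two-sided permutation tests over libraries, adjusted over the 10 ratio pairs or the 9 shares. The procedure was tested on simulated data. Sequences come from GENCODE 29 models on GRCh38 and RefSeq promoters on GRCh38.p14 (FOXA1, GATA2 and SPDEF). The GRHL2 promoter was not used here.

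The members, lists and tests were chosen with earlier results of these data known. From each list the text names up to 4 called genes with the smallest p per direction (6 in lists of over 30 kept), the nearest kept gene on each side of a factor, and the 3 genes most like it, besides genes whose sentence gives another choice. Some genes that this rule took are left out of the text but are included in the list counts. Alternatives were 2 pseudocounts, 2 filters, 4 scalings, plain eBayes (neither trend nor robust), a block on replicate number and leaving out each library.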

Additional observations from a re-analysis of the deposited data

How the results depend on the processing

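Directions of GRHL2 and GATA2 held under all alternatives run, and no factor transcript was called in any. The 7 separated ratios were redone only without the pseudocount and with each library left out, and stayed separated. Leaving out a library cannot make separated groups overlap, so that part was fixed in advance. The number of factors called, 1 as reported, was 2 after rescaling to equal sums over nuclear genes, 2 after quantile normalization, 2 after cyclic loess and 0 with the replicate block, and 0 to 1 with 1 library left out. Same-numbered libraries did not deviate together (correlations 0.04, 0.02 and -0.03), so the numbers do not pair the samples. With that replicate block, 429 genes were called in place of 1581, 0 transcripts in place of 102, 1 cofactor, 3 relatives, 2 epithelial genes and 1 mesenchymal or basal factor, and the limma adjusted p of GRHL2 was 0.0505. Libraries left out in turn gave 536 to 815 genes and 22 to 45 transcripts, and 2 to 3 cofactors, 3 to 5 relatives, 2 to 3 epithelial genes, 7 to 8 luminal genes, 1 to 3 mesenchymal or basal factors and 1 to 5 separated shares. These fits have fewer samples. Other list counts stayed within 1.5 times the reported ones. Depth is unknown, and 3 libraries a group cannot reach an exact permutation p under 0.1.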
